A study of Mus musculus with 6 samples.

Results

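The Egr, Nab and Nr4a genes form a small transcriptional circuit switched on by antigen receptor signals. The group held 8 genes (Egr1, Egr2, Egr3, Nab1, Nab2, Nr4a1, Nr4a2 and Nr4a3), taken by gene symbol, and every probe set with one of these symbols on the platform was used. They were read by 12 of 22690 probe sets and made up 8 of the 12393 genes tested. Egr2, Nab1, Nr4a2 and Nr4a3 had 2 probe sets each, and the other 4 genes had 1.

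Messenger RNA was measured on 6 oligonucleotide arrays in CD4+CD25+ mouse cells separated with magnets to obtain regulatory T cells (Treg), the T cell lineage that restrains immune responses through the transcription factor Foxp3. The Dnmt1 knockout group (3 arrays) was fl-DNMT1/Foxp3cre on the C57BL6 strain, that is, a floxed gene for the maintenance DNA methyltransferase with Cre recombinase driven by Foxp3. The wild type group (3 arrays) was C57BL6, with neither the floxed gene nor the Cre named in its labels. No ages are named in the labels. The Cre removes Dnmt1 only in cells that express Foxp3, the separation by CD4 and CD25 may keep other cells, and effects of the Cre or of the floxed allele cannot be told apart from the deletion. Nothing in the labels ties an array to an animal, so the p-values reflect the spread among these 6 arrays, which may be technical. In bulk RNA, fewer cells of a type and less RNA per cell cannot be told apart.

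When a T cell receptor is engaged, the Ras and MAP kinase route acts on ternary complex factors and serum response factor (SRF), and the calcium route acts through calcineurin on NFAT and MEF2 factors. Both induce the zinc finger factors Egr1, Egr2 and Egr3 and the orphan nuclear receptors Nr4a1 (Nur77), Nr4a2 (Nurr1) and Nr4a3 (Nor1) within a short time. Nab1 and Nab2 are co-repressors that bind Egr proteins and recruit the NuRD complex, and Nab2 is itself induced by Egr factors, which closes a feedback loop. In mouse T cells, Egr2 and Egr3 are known for restraining activation, and Nr4a factors for sustaining Foxp3 in Treg, cells that receive frequent signals through their antigen receptor.

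The upstream sequences of 4 members are shown because 3 of them (Egr2, Nab2 and Nr4a1) had the largest differences in mean level, and Nab1 is the paralogue of Nab2 whose level overlapped between the groups. Each line gives the 250 bases before an annotated start, 5′ to 3′, from RefSeq on GRCm38.p6. Capitals mark matches, on both strands, to the Egr site GCGNGGGCG, the CArG box bound by SRF, the cAMP response element core TGACG and the Nr4a site AAAGGTCA.
Egr2, chr10:67537619-67537868, + strand: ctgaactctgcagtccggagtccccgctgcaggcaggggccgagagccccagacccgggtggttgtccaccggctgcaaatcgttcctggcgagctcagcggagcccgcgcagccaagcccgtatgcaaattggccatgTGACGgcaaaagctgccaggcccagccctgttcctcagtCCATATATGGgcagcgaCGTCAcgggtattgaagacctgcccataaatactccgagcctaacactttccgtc
Nab2, chr10:127666704-127666953, - strand: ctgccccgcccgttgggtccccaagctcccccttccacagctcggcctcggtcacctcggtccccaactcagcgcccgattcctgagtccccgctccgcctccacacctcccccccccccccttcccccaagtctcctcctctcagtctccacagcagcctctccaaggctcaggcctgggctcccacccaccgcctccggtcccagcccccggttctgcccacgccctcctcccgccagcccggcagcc
Nr4a1, chr15:101266596-101266845, + strand: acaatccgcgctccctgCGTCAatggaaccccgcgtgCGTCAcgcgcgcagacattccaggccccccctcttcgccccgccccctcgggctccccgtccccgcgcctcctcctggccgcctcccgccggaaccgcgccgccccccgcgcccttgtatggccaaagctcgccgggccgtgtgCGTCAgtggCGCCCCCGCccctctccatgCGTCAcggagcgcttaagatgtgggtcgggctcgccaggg
Nab1, chr1:52500449-52500698, - strand: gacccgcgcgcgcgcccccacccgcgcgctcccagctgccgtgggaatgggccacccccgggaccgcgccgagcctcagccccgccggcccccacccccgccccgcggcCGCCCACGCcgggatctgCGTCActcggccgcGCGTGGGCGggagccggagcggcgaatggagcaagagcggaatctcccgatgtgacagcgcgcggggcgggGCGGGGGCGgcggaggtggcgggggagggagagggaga

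Of the 8 members, 6 matched the promoter table, in which Egr2 had 5 annotated starts and the others 1 each. The Egr2 window shown had a CArG box beginning 72 bases before the start and TGACG cores at 111 and 55 bases. The Egr2 windows differed. The most upstream held no match, the next only a different CArG box, and the rest overlapped the window shown and held its matches. Nr4a1 had 1 Egr site at 60 bases and 4 TGACG cores. Nr4a2 had 1 Egr site and 4 TGACG cores, and Nr4a3 had 4 TGACG cores. Nab1 had 3 Egr sites, at 141, 109 and 38 bases, and Nab2 had no match in its window. None of the members' windows held AAAGGTCA, and no matches overlapped each other. Over all 32851 windows of this length, 4.70% held the Egr site, 1.47% a CArG box, 17.8% TGACG and 1.34% AAAGGTCA. The windows shown had 17 CpG dinucleotides for Egr2, 15 for Nab2, 34 for Nr4a1 and 40 for Nab1, where the median window had 6. A match describes the letters only, and neither binding nor DNA methylation was measured on these arrays.

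Egr2 and its co-repressor Nab2 fell in the knockout, and Nr4a1 had a mean lower by a similar size without passing the test. By their brightest probe sets Egr3, Nab1 and Nr4a3 differed by less than 0.05 on the log2 scale. The other probe sets of Nab1 and Nr4a3 differed by 0.05 and 0.16. Nr4a3 was dim, with all values below the array medians of 5.69 to 5.77, and its 95% interval ran from -0.33 to 0.40. Of the 8 members 2 were lower and 0 higher at a limma adjusted p under 0.05 over all genes, and 6 did not pass. Over all genes tested, 0.573% were lower and 1.33% higher by this rule, 1.90% in all. Of the 12 probe sets 2 were lower and 0 higher, where 0.486% of all probe sets were lower and 1.19% higher, 1.68% in all. Knockout and wild type values did not overlap in 5 of the 12, all with the knockout below, as in 13.6% of all probe sets, and 8 of the 12 had a difference below 0, as had 54.8%. The knockout values lay wholly below the wild type values for 4 members (Egr1, Egr2, Nab2 and Nr4a1), as they did for 14.0% of all genes. The members' median difference was -0.41, where that of all genes was -0.014, and 6 of the 8 had a difference below 0, as had 53.7% of all genes. Differences are knockout minus wild type on the log2 scale of the deposited expression values throughout.

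**Figure D1:**
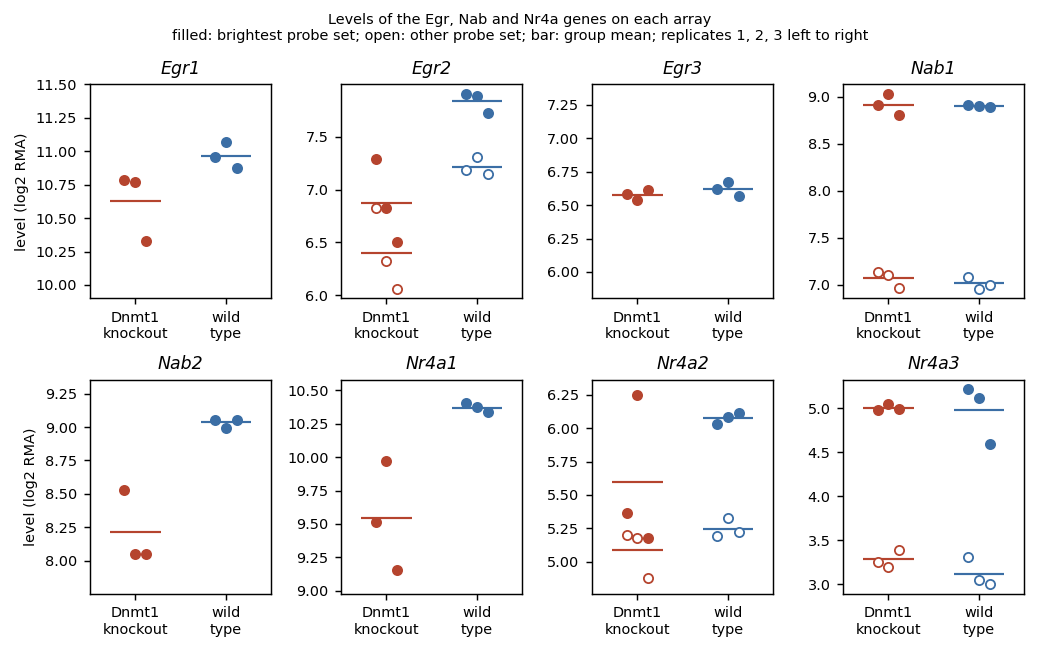
Level (log2 RMA, vertical axis) of each member on each array, with the Dnmt1 knockout arrays in red at the left of each panel and the wild type arrays in blue at the right. Filled circles are the brightest probe set, open circles the other one, and bars are group means. Every panel spans at least 1.6 log2 units. All knockout values lie below all wild type values for Egr1, Egr2, Nab2 and Nr4a1.

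Among the Egr factors, Egr2 (Krox20) had levels of 7.28, 6.83 and 6.51 in knockout replicates 1, 2 and 3, against 7.90, 7.89 and 7.73 in wild type replicates 1, 2 and 3. Every knockout array was below every wild type array, and replicate 3 was the lowest. The mean was 6.87 ± 0.39 in the knockout and 7.84 ± 0.10 in wild type (SD, n = 3 each), a difference of -0.97 (SE 0.18, 95% interval -1.39 to -0.54), which is 1.95-fold lower. The limma adjusted p was 0.0497, just inside the threshold, and Egr2 ranked 233 by p among 236 genes called in either direction. The other Egr2 probe set followed the same array order, with 6.82, 6.33 and 6.06 in the knockout and 7.19, 7.31 and 7.14 in wild type. Its difference was -0.81 (SE 0.18), which did not pass over all probe sets (limma adjusted p = 0.0771). The call on Egr2 held without knockout replicate 1 (difference -1.17, limma adjusted p = 0.00694) but not without knockout replicates 2 or 3 or any wild type array, where the limma adjusted p was between 0.0817 and 0.185. It was also lost, with differences of -0.95, -0.91 and -0.89, after quantile normalisation (limma adjusted p = 0.0530), after cyclic loess (0.0545) and with the mean over both probe sets (0.0561).

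Egr1, the archetype of the family, had levels of 10.79, 10.77 and 10.33 in knockout replicates 1, 2 and 3, against 10.95, 11.07 and 10.88 in wild type. The groups did not overlap, but knockout replicate 3 lay farthest below, and the other knockout arrays lay within 0.2 of the wild type mean. Its difference of -0.34 (SE 0.14, 95% interval -0.65 to -0.02) did not pass (limma adjusted p = 0.253), and it was -0.19 without that array. Egr3, often induced together with Egr2, had 6.58, 6.54 and 6.61 in the knockout and 6.62, 6.67 and 6.57 in wild type. These values overlapped, with a difference of -0.05 (SE 0.07, limma adjusted p = 0.782) and a 95% interval from -0.22 to 0.12 that excludes a fall as large as that of Egr2. Whether the changes of Egr2 and Egr3 differ was not tested.

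Of the co-repressors, Nab2 had levels of 8.53, 8.05 and 8.05 in knockout replicates 1, 2 and 3, against 9.06, 8.995 and 9.05 in wild type. The wild type arrays were within 0.1 of each other and all knockout arrays lay well below them. The mean was 8.21 ± 0.28 in the knockout and 9.03 ± 0.03 in wild type (SD, n = 3 each), a difference of -0.82 (SE 0.14, 95% interval -1.14 to -0.51), which is 1.77-fold lower (limma adjusted p = 0.0331). The call held under quantile normalisation, median centring, cyclic loess, trend and robust variance, weighted arrays, the replicate block and the filter on dim genes, and without knockout replicate 1 (limma adjusted p = 0.00325). It was lost without knockout replicate 2 (0.0703) or 3 (0.0888) and without each wild type array (0.133 to 0.151), with differences between -0.84 and -0.74. Nab1 had 8.92, 9.03 and 8.81 in the knockout and 8.91, 8.90 and 8.89 in wild type. Its groups overlapped, with a difference of 0.02 (SE 0.08, 95% interval -0.17 to 0.21, limma adjusted p = 0.933), and its other probe set differed by 0.05 (SE 0.08). The sign of the brighter Nab1 probe set turned with median centring, with array weights and without knockout replicate 2.

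Nab2 and Egr2 both lie on chromosome 10, but not side by side. The annotated neighbour Stat6, which encodes the interleukin-4 signal transducer and overlaps Nab2 at its end, had 10.16 ± 0.03 in the knockout and 10.27 ± 0.08 in wild type (SD, n = 3 each). That difference of -0.11 (SE 0.08, limma adjusted p = 0.510) did not pass. Nrbf2, the neighbour of Egr2 that was measured, had a difference of -0.08 (SE 0.10, limma adjusted p = 0.750).

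Nr4a1, widely used as a reporter of antigen receptor signal strength, had levels of 9.51, 9.97 and 9.15 in knockout replicates 1, 2 and 3, against 10.40, 10.37 and 10.34 in wild type. All knockout arrays were below wild type, with replicate 2 nearest to it. The mean was 9.55 ± 0.41 in the knockout and 10.37 ± 0.03 in wild type (SD, n = 3 each), a difference of -0.83 (SE 0.19, 95% interval -1.26 to -0.39). This was the nearest member outside the threshold (limma adjusted p = 0.0774). Without knockout replicate 2 the difference was -1.04 and passed (limma adjusted p = 0.0159), and with array weights it was -0.91 and passed (0.0341).

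The value of Nr4a2 depended on single knockout arrays. Its brighter probe set had 5.36, 6.25 and 5.18 in knockout replicates 1, 2 and 3, against 6.03, 6.08 and 6.11 in wild type. Replicates 1 and 3 lay below every wild type array and replicate 2 above them all. The difference of -0.48 (SE 0.25, 95% interval -1.06 to 0.11) did not pass (limma adjusted p = 0.369), whereas without knockout replicate 2 it was -0.80 and passed (0.0159). Without knockout replicate 3 it was -0.27 (limma adjusted p = 0.628), and without replicate 1 it was -0.36 (0.523). The other Nr4a2 probe set, with 5.20, 5.18 and 4.88 in the knockout and 5.20, 5.32 and 5.22 in wild type, did not set replicate 2 apart (difference -0.16, SE 0.11, limma adjusted p = 0.494). Nr4a3 had 4.97, 5.05 and 4.99 in the knockout and 5.21, 5.12 and 4.59 in wild type. The groups overlapped and wild type replicate 3 stood below the rest, with a difference of 0.03 (SE 0.16, 95% interval -0.33 to 0.40, limma adjusted p = 0.938) whose sign turned without that array (-0.16) and under quantile normalisation. The other Nr4a3 probe set had a mean level of 3.28 in the knockout and 3.12 in wild type and also overlapped.

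**Figure D2:**
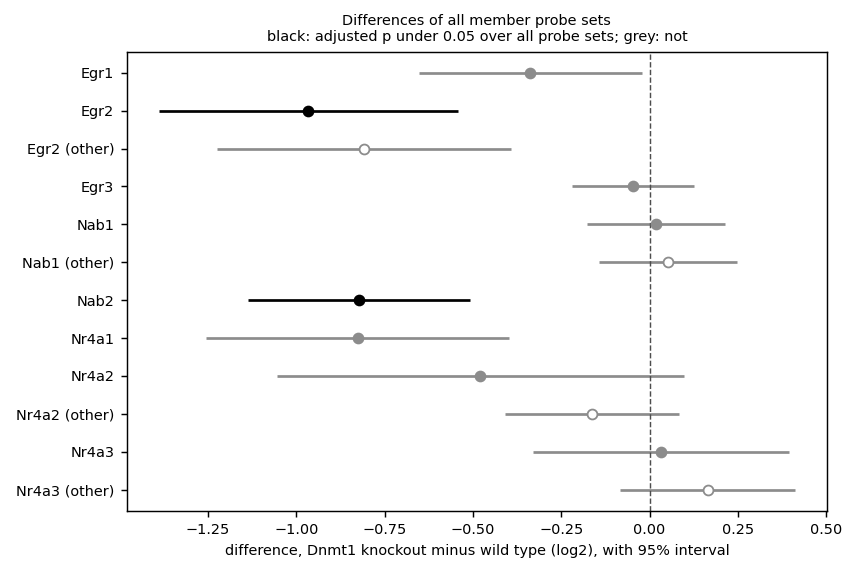
Difference between Dnmt1 knockout and wild type (log2, horizontal axis) for all 12 probe sets of the members, with lines for the 95% interval from limma. Filled circles are the brightest probe set of a gene and open circles the other one, and black marks an adjusted p under 0.05 over all probe sets. The Egr2 and Nab2 intervals lie wholly below 0, as do those of the second Egr2 probe set, Nr4a1 and Egr1, which did not pass.

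The members that were low (Egr1, Egr2, Nab2, Nr4a1 and Nr4a2) were all lowest in knockout replicate 3 by their brightest probe sets. They did not order the other knockout arrays in the same way. Egr1, Egr2 and Nab2 were highest in knockout replicate 1 and lowest in replicate 3, an order also held by 16.2% of all genes. However, Nab2 was nearly level between replicates 2 and 3, and Egr1 between replicates 1 and 2 (10.79 and 10.77). By their brightest probe sets all 3 Nr4a genes, and Nab1, were highest among the knockout arrays in replicate 2, as were 33.3% of all genes, which was not so for the other probe sets of Nab1, Nr4a2 and Nr4a3. Relative to the wild type mean, Egr2 was at -0.55, -1.01 and -1.33 in knockout replicates 1, 2 and 3, while Nr4a1 was at -0.86, -0.40 and -1.22. The root mean square difference over the 6 arrays, after subtracting each gene's wild type mean, was 0.16 between Egr2 and Nab2, 0.28 between Nr4a1 and Nr4a2 and 0.29 between Egr2 and Nr4a1. These are descriptions of 3 knockout arrays, with no test.

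Some genes that mark the cells had the same order of knockout arrays. Foxp3 had 9.28, 8.82 and 8.43 in knockout replicates 1, 2 and 3, against 9.47, 9.51 and 9.51 in wild type, the same order as Egr2 (difference -0.66, SE 0.19, limma adjusted p = 0.142). Of 10 T cell and Treg markers 2 fell and 8 did not pass, all 10 had a difference below 0, and 5 were, like Egr2, highest in knockout replicate 1 and lowest in replicate 3. Their mean level was 10.03, 9.71 and 9.55 in the knockout and 10.08 to 10.15 in wild type, and their summed linear level was 14817 to 19716 in the knockout and 18469 to 19193 in wild type. The Dnmt1 transcript ran the other way, with 8.67, 8.89 and 9.34 in knockout replicates 1, 2 and 3, against 9.43 to 9.56 in wild type (difference -0.53, SE 0.16, limma adjusted p = 0.152). The knockout array with the least Dnmt1 signal was thus the one with the highest Egr2 and Nab2. The position of the Dnmt1 probe set relative to the floxed part was not examined.

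**Figure D3:**
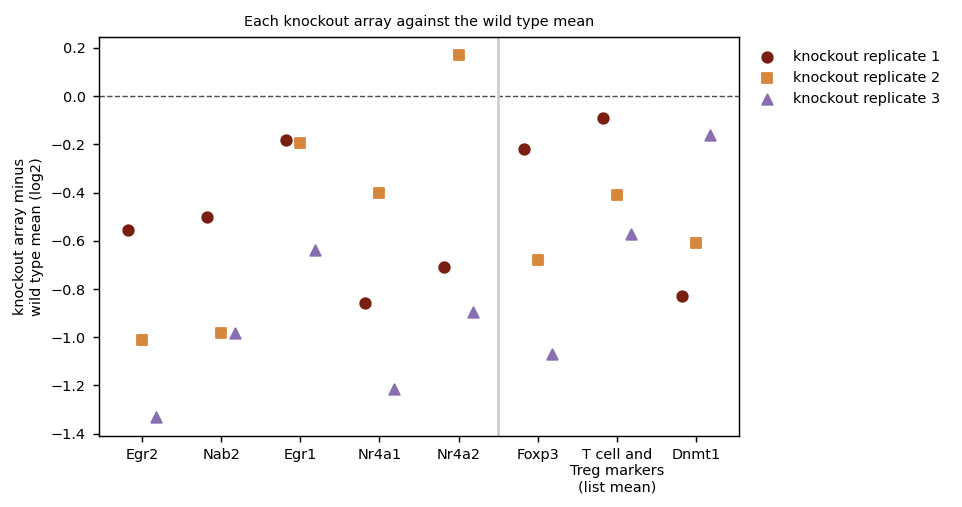
Each knockout array minus the wild type mean (log2, vertical axis) for the 5 members with the lowest differences, left of the grey line, and for Foxp3, the mean of the T cell and Treg markers and Dnmt1, right of it. Symbols stand for knockout replicates 1, 2 and 3. All 5 members, Foxp3 and the marker mean have their lowest value in replicate 3, where Dnmt1 is nearest to wild type. Nr4a1 and Nr4a2 have their highest value in replicate 2, and Egr2, Nab2, Egr1 and Foxp3 in replicate 1.

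Neutrophil markers rose in the knockout, and were highest in replicate 2. Of 13 measured neutrophil markers 8 rose and 0 fell, and the summed linear level was 14164 to 62819.5 in the knockout and 1664 to 2712 in wild type, with 13 of 13 markers highest in knockout replicate 2. Of 13 monocyte and macrophage markers 1 rose, with a summed level of 3765 to 12927 in the knockout and 1969 to 4438 in wild type. Of 11 CD8 and NK cell markers 1 rose and 1 fell, with a summed level of 3271 to 6022 in the knockout and 3601 to 3920 in wild type. Of 9 B cell and plasma cell markers 0 passed (6086 to 9935 in the knockout, 5577 to 8579 in wild type), and of 6 dendritic cell markers 0 passed (1606 to 2199.5 in the knockout, 1332 to 1582 in wild type). No marker was at 0 on this scale. Myeloid cells also express Egr and Nr4a genes, and the part of these cells in the members' values was not tested.

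With all 6 arrays the remaining immediate early genes showed no calls. Of 19 measured, 0 passed in either direction, 10 had a difference below 0 and the median difference was -0.03. Knockout values lay wholly below wild type in 5 of the 19 and wholly above in 2, where 14.0% of all genes lay wholly below. With the lowest p were Ier3, an early response gene of cell survival, and Srf itself. Ier3 had 6.06, 6.77 and 5.70 in knockout replicates 1, 2 and 3, against 5.11, 5.13 and 5.10 in wild type, a difference of 1.07 (SE 0.24, limma adjusted p = 0.0773). It passed without knockout replicate 2 (difference 0.77, limma adjusted p = 0.0374) and without replicate 3 (1.30, 0.0484). Srf had 7.65, 7.45 and 7.64 in the knockout and 7.97, 7.92 and 7.86 in wild type, a difference of -0.33 (SE 0.09, limma adjusted p = 0.109). In 14 of the 19 the highest knockout value was in replicate 2, as for the brightest Nr4a probe sets and for 33.3% of all genes. The same held for 13 of 13 neutrophil markers and 11 of 13 monocyte and macrophage markers. Of 18 later antigen response genes 0 passed and the median difference was -0.10. Tnfrsf9, the costimulatory receptor 4-1BB, had 8.81 ± 0.24 in the knockout and 9.24 ± 0.02 in wild type (SD, n = 3 each, limma adjusted p = 0.140), while its other probe sets overlapped between the groups. Its difference of -0.42 was -0.56 and passed without knockout replicate 1 (limma adjusted p = 0.0161), and was -0.21 with the mean over probe sets (0.323). The repressor gene Bhlhe40 had 10.30 ± 0.66 in the knockout and 9.33 ± 0.09 in wild type (SD, n = 3 each, limma adjusted p = 0.146). Its difference of 0.97 was 1.30 and passed without knockout replicate 1 (limma adjusted p = 0.0207), and was 0.64 without replicate 2 (0.181).

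Among 18 genes reported downstream of Egr2 and Egr3 in T cells, 2 fell, 1 rose and 15 did not pass, with a median difference of -0.03. The falls were Nab2 and Dgkz, which encodes the diacylglycerol kinase zeta that damps Ras signals. Dgkz had 11.38, 11.34 and 11.35 in knockout replicates 1, 2 and 3, against 11.72, 11.74 and 11.81 in wild type (difference -0.41, SE 0.07, limma adjusted p = 0.0403). Its other probe set differed by as much (-0.40) without passing over all probe sets (limma adjusted p = 0.124). The rise was in Crtam, an adhesion molecule of activated T and NK cells, with 7.45, 7.74 and 7.75 in the knockout and 6.41, 6.64 and 6.49 in wild type (difference 1.13, SE 0.11, limma adjusted p = 0.00662). The Dgkz call held only without knockout replicate 1 when single arrays were left out (0.0753 to 0.176 otherwise) and was lost with the replicate block (0.108) and cyclic loess (0.0551). Crtam lost its call without wild type replicate 1 (0.0541) or 3 (0.0552).

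Of 14 genes reported downstream of Nr4a factors in T cells, 2 fell, 0 rose and 12 did not pass, with a median difference of -0.33 and 7 genes whose knockout values were all below wild type, as were those of 14.0% of all genes. The 2 that fell, Ikzf2 and Il2ra, also belong to the T cell and Treg markers, as do Foxp3 and Ctla4 of this list. By their brightest probe sets all of these had knockout values wholly below wild type, so this list is not independent of those markers. Ikzf2, encoding Helios, had 4.75, 4.88 and 4.46 in knockout replicates 1, 2 and 3, against 5.67, 5.33 and 5.42 in wild type (difference -0.77, SE 0.13, limma adjusted p = 0.0403). All these values lay below the array medians of 5.69 to 5.77, so this call was read at low levels. Il2ra, encoding CD25, by which the cells were separated, had 8.60, 8.21 and 8.33 in the knockout and 9.06, 8.91 and 9.12 in wild type (difference -0.64, SE 0.12, limma adjusted p = 0.0432). The other Il2ra probe set overlapped between the groups (difference -0.24, limma adjusted p = 0.308 over all probe sets). The Ikzf2 call was lost without any one wild type array or without knockout replicate 3 (0.0810 to 0.155), and the Il2ra call without any one array other than knockout replicate 1 (0.0821 to 0.185) and with the mean over probe sets (0.0918). With the replicate block both were outside the threshold (0.0640 and 0.0570).

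The routes that induce the members showed no calls. In the MAP kinase and SRF route 0 of 11 measured genes passed (median difference 0.03), and the ternary complex factor gene Elk4 had 10.30 ± 0.04 in the knockout and 10.60 ± 0.07 in wild type (limma adjusted p = 0.109). The other 2 Elk4 probe sets overlapped between the groups, with differences of -0.10 and 0.12, and the mean over probe sets differed by -0.09 (limma adjusted p = 0.543). In the calcium, NFAT and MEF2 route 0 of 16 passed (median -0.08). Knockout values lay wholly below wild type in 5 of these 16 and wholly above in 2. In the MAP kinase and SRF route they did so in 2 and 4 of 11. Hdac7, a repressor of Nr4a1 in T cells, had 9.65 ± 0.08 in the knockout and 9.98 ± 0.08 in wild type (0.109). Camk2d had a difference of -0.28 (0.226), or -0.35 with the mean over probe sets (0.0824). Its other probe set differed by -0.42, with all knockout values below wild type (limma adjusted p = 0.0581 over all probe sets). Of 10 measured NuRD genes, whose complex Nab proteins recruit, 0 passed. A difference below 0 was held by 9 of them (median -0.15), and by 53.7% of all genes. Knockout values lay wholly below wild type in 3 of the 10 and wholly above in 0. Chd4, the helicase subunit that binds Nab proteins, had 8.996 ± 0.09 in the knockout and 9.20 ± 0.03 in wild type (0.231). Other Chd4 probe sets differed by -0.37, without overlap (limma adjusted p = 0.133 over all probe sets), and by -0.17, with overlap. Mta1 had a difference of -0.18 (0.291). Of 10 heat shock genes, which can rise with the handling of cells, 0 passed (median 0.03). Hspb1 was at 6.70 ± 0.17 in the knockout and 6.27 ± 0.08 in wild type (0.0976), and its other probe set overlapped (difference 0.27). Hsph1 had a difference of 0.36 (0.198), or 0.23 without wild type replicate 3 (0.410) and 0.40 with the mean over probe sets (0.130). Its other probe set differed by 0.45, with all knockout values above wild type (limma adjusted p = 0.124 over all probe sets). Values are means and SD of 3 arrays, and p-values in parentheses are limma adjusted p over all genes. At an unadjusted p under 0.05 limma gave 17.9% of all genes.

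**Figure D4:**
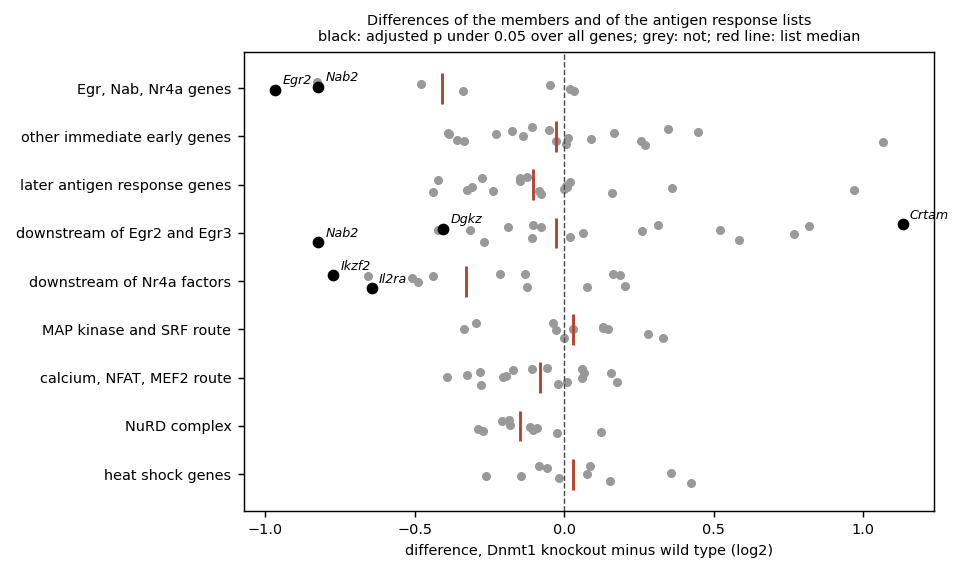
Difference between Dnmt1 knockout and wild type (log2, horizontal axis) of every measured gene in the member group and in the 8 lists set beside it, 1 row per list. These lists include the NuRD and heat shock genes. Black points passed an adjusted p under 0.05 over all genes, grey points did not, and red lines are list medians. The lists share some genes, such as Nab2, and only the member group and the Nr4a list have medians below -0.3.

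The genes whose pattern over the 6 arrays was most like that of the called members were sought among 6191 genes at or above the median level, by the root mean square difference after subtracting each wild type mean. Nearest to Egr2 were Spry1 (0.12), a brake on MAP kinase signals, Nrp1 (0.16), a semaphorin receptor gene of Treg, and Isoc2b (0.16). Spry1 had 7.50, 7.35 and 6.99 in knockout replicates 1, 2 and 3, against 8.22, 8.18 and 8.25 in wild type. Nearest to Nab2 were Il6st (0.058), which encodes the shared signal chain gp130 of interleukin-6 type cytokines, Lrig1 (0.080), an inhibitor of growth factor receptors, and again Nrp1 (0.084). Il6st had 9.14, 8.74 and 8.61 in the knockout and 9.58, 9.56 and 9.66 in wild type. Like Egr2 and Nab2, these genes were highest among the knockout arrays in replicate 1, and likeness was chosen on the values themselves, so no test is given.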

How the data were processed

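Expression was measured on 6 arrays in 1 colour, each with total RNA of 1 sample. The deposited log2 values per probe set were made by the authors with RMA, per the submitters' processing notes. For its version, its settings and any array batches, the sources used here hold no details. RMA compresses low levels and removes differences in total RNA. Medians of the arrays ran from 5.69 to 5.77. Precision is limited by having 3 arrays a group.

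Probe sets were named through the platform annotation (20380 of 22690 with 1 symbol) and checked against RefSeq on GRCm38.p6, where 20351 matched and 0 symbols changed. For each gene the probe set of highest mean over the 6 arrays was used, and all 22626 probe sets other than controls were also fitted. Groups were compared with limma 3.58.1 in R 4.3.3 (lmFit, eBayes, two-sided, no filter on dim genes), adjusted over all genes or probe sets by Benjamini-Hochberg and called under 0.05. The fit was tested on simulated data. Figures used matplotlib 3.10.9 in Python 3.11.15.

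Members and lists were chosen with earlier results of these data known. Named were all members, the called genes of each list (up to 6 by lowest p, or the 2 with the lowest p where fewer than 2 were called), the 3 genes most like each called member, and Dnmt1 as the targeted gene. Foxp3 is a list member shown for its array order, and Stat6 and Nrbf2, as neighbours, were added after values were seen. Alternatives were quantile normalisation, median centring, cyclic loess, leaving out the dimmest 40%, a trended robust variance, weighted arrays, the replicate number as a block, the mean over probe sets, separate probe sets and leaving out each array.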

Additional observations from a re-analysis of the deposited data

How the results depend on the processing

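Nr4a1 and Nr4a2 were the 2 members called without knockout replicate 2, in place of Egr2 and Nab2. Leaving out each array in turn, 0 to 2 member genes, 0 to 3 member probe sets and, over all genes, 17 to 358 higher and 3 to 186 lower were called, against 165 and 71 with all arrays. Of genes in the lists set beside the members, NuRD and heat shock genes included and members left out, 0 to 5 were higher and 0 to 8 lower, against 1 and 3. Quantile normalisation, cyclic loess and the mean over probe sets left 1 member gene called (Nab2), and both normalisations left 1 member probe set. Array weights gave 4 member probe sets and 110 lower genes, trend and robust variance 113 lower genes, and separate probe sets 270 higher and 110 lower. Samples of the same replicate number had correlations of deviations from the group means of -0.082, 0.147 and -0.041. Those of unlike numbers ran from -0.156 to 0.196. With 3 arrays a group this cannot decide whether the numbers pair the samples, and the labels do not say. With the replicate block Egr2 and Nab2 stayed called, 1 member probe set was called, 35 genes were lower, and 0 list genes were lower. Differences turned for Nab1 with median centring (-0.0089), array weights (-0.0053) and without knockout replicate 2 (-0.037), and for Nr4a3 under quantile normalisation (-0.011) and without wild type replicate 3 (-0.16). Leaving out 1 array moved the Nab1 difference between -0.037 and 0.072 and that of Nr4a3 between -0.16 and 0.15. The cause of these changes was not tested. Egr1, Egr2, Egr3, Nab2, Nr4a1 and Nr4a2 kept their direction under all 15 alternatives. Nr4a3 and Ikzf2 were among the genes left out with the dimmest 40% and have no value there. The median of all genes moved by less than 0.1 under the alternatives fitted by gene, and was not computed for separate probe sets.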
